A study of Mus musculus with 9 samples.

Results

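The angiopoietin and Tie receptor genes are 8 of the 24321 genes listed for meningeal lymphatic endothelial cells (MLECs). They were chosen by symbol, with earlier results of these data known, and comprise Angpt1, Angpt2, Tek, Tie1, Ptprb, Foxo1, Angptl2 and Angptl4. All 8 had a row, and 6 of them passed the filter on low values, which asked for 3 or more libraries at 1 FPKM or above. Angpt1 and Angptl2 did not pass it. FPKM, fragments per kilobase of exon scaled to the mapped fragments of the library, is a level per length, so that genes can be compared within a library.

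MLECs line the lymphatic vessels of the dura. They were collected from male mice aged 10 weeks per the labels, which had been injected at 7 to 8 weeks with PBS (control), GL261 glioma cells or B16 melanoma cells. The strain was C57BL/6 per the methods. By the labels, GL261-bearing mice were killed after about 3 weeks and B16-bearing mice after about 2 weeks, so that tumor type and time since injection cannot be told apart on that account. The study's own text instead gives a common time or range for every group, PBS included. Each group had 3 RNA-seq libraries, each made by Smart-seq2 from 10 sorted cells of meninges pooled from 6 mice, and the pools held different mice. The 6 GL261 and B16 libraries are together called tumor-associated. The labels place the injection in the cisterna magna and the methods under the dura. The sort used CD31, CD45 and LYVE-1 per the labels, whereas PDPN is named in the study's account of the gate.

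Angiopoietins are secreted ligands of Tie2, the receptor tyrosine kinase encoded by Tek. ANGPT1 activates Tie2, ANGPT2 acts as an agonist or an antagonist depending on context, and Tie1 is a related receptor without a well-defined ligand of its own that forms complexes with Tie2. VE-PTP, the phosphatase encoded by Ptprb, dephosphorylates Tie2, and FOXO1 is a transcription factor that Tie2 signaling restrains through AKT and that drives Angpt2. In lymphatic endothelium the pathway is needed for remodeling of vessels and maturation of valves, and low VE-PTP there is known to let ANGPT2 act as an agonist.

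The promoters of both Tie receptors are shown because the mean differences of the receptors between the groups had opposite signs. RefSeq sequence of GRCm38.p6, from 250 bases before to 50 bases after the start site, was matched for 4 of the 8 genes, Tek, Tie1, Foxo1 and Angptl2. The Tek sequence is chr4:94739039-94739338 on the + strand and the Tie1 sequence is chr4:118489800-118490099 on the - strand. Both are written 5′ to 3′, with capitals at matches to the ETS core AGGAAG, the forkhead motif GTAAACA or the GATA motif AGATAA on either strand. None of the capitalized matches overlap.
Tek: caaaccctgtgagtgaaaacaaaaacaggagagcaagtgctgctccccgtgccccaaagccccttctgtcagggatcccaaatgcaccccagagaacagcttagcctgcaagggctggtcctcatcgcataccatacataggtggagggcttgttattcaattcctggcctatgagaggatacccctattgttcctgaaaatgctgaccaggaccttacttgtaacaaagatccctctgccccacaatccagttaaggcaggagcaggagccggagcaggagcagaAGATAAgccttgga
Tie1: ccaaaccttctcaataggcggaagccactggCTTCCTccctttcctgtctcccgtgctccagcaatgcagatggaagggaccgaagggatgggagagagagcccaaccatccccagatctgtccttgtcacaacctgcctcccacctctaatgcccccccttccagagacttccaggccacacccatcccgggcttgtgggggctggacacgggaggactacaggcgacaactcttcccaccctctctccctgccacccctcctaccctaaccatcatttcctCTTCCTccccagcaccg
Tek held 1 GATA match, 36 to 41 bases past the start site, and no ETS match in this window. Tie1 held 2 ETS matches, read as CTTCCT, at -219 to -214 and at 33 to 38 bases from the start site. No forkhead match lay in either window. Of 32851 promoters of this length, 35.4% held the ETS core, 11.2% the GATA motif and 3.65% the forkhead motif, so that a match of the first kind was common. GC content was 52.0% for Tek and 60.3% for Tie1.

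The control libraries were shallower than the tumor-associated ones. Genes above 0 numbered 7303 to 8688 in control and 8736 to 10852 in tumor-associated libraries, and in the study's list the deepest control library had fewer aligned reads than the shallowest one under a tumor. Depth and tumor status therefore cannot be told apart by the design. Pecam1, which encodes the sort marker CD31, was at 149.5 to 292.7 FPKM under PBS and 309.0 to 468.0 FPKM under tumors. Lyve1, a sort marker by the labels, was at 974.1 to 1705 FPKM and 627.6 to 1895 FPKM. Both were selected by the sort, so that their presence is no separate evidence of identity. The summed FPKM of the 8 pan-endothelial markers, Pecam1 among them, was 3642 to 4187 under PBS and 3713 to 4998 under tumors. The marker lists, too, were chosen with earlier results of these data known. Of 9 lymphatic markers tested, 4 fell (Fxyd6, Mmrn1, Reln and Flt4), where 1.02% of all genes tested were called lower. The summed FPKM of the 10 listed was 2934 to 3746 in control and 832.0 to 2653 in tumor-associated libraries. Prox1, the defining transcription factor, was at 20.9 to 42.2 FPKM under PBS and 1.87 to 16.5 FPKM under tumors. Of 12 blood endothelial markers, 8 rose, led by Ly6c1, Cd34, Flt1 and Esam, and Aqp1 fell, against 2.9% and 1.02% of all genes. The summed FPKM of the 12 was 1416 to 2256 in control and 4760 to 8984 in tumor-associated libraries. The tumor-associated libraries thus only in part match their lymphatic label. Flt1 was at 0.0997 to 0.856 FPKM under PBS and 49.0 to 156.0 FPKM under tumors, and Ly6c1 was listed at 0 in the 3 control libraries. Both met the low-value filter only through tumor-associated libraries, so that the direction of their differences was set by the filter. Vwf, also called higher, was at 0 to 1.92 FPKM under PBS and met the filter mainly through tumor-associated libraries. In libraries of pooled cells, fewer cells of a type and less RNA per cell cannot be told apart.

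Angpt2 was the most abundant of the 8 genes in each group by its mean. Its level was 303, 244 and 110 FPKM in control 1, 2 and 3, 81.6, 43.2 and 209 FPKM in GL261 1, 2 and 3, and 166, 98.2 and 46.7 FPKM in B16 1, 2 and 3. The groups overlapped, since GL261 3 and B16 1 lay above control 3. The mean was 219 ± 98.9 FPKM in control (SD, n = 3) and 107 ± 66.8 FPKM in tumor-associated libraries (SD, n = 6). On the log2(FPKM + 1) scale, used for every difference given here, the tumor-associated mean was lower by 1.13 (SE 0.53, 95% interval of tumor minus control -2.28 to 0.01), and limma did not call it (adjusted p = 0.268). The exact two-sided permutation test over the 84 divisions of the libraries gave p = 0.107. Within each library, Angpt2 ranked between the 81.4 and the 95.2 percentile of genes above 0.

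Angpt1, the agonist usually made by mesenchymal and mural cells, was listed at 0 in 8 libraries and at 1.02 FPKM in GL261 1. A listed 0 does not show absence in libraries of this size. Of the markers of pericytes and smooth muscle, Kcnj8 was at 59.9 to 195 FPKM under PBS and 6.56 to 116 FPKM under tumors, and Abcc9 at 0.507 to 7.68 FPKM and 4.35 to 16.1 FPKM. Neither passed the test. The summed level of the 10 mural markers was 170 to 1270 FPKM under PBS and 17.6 to 137 FPKM under tumors. Its highest value came from control 1, where Acta2 was at 505 FPKM and Tagln at 641 FPKM, and Des was listed at 0 in every library. In controls 2 and 3 the sum was mostly Kcnj8, and Pdgfrb, Rgs5, Cspg4, Notch3, Acta2 and Tagln were listed at 0.

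Tek, encoding Tie2, had higher values under tumors than in 2 of the 3 control libraries. Its level was 4.90, 37.8 and 10.5 FPKM in control 1, 2 and 3, 29.4, 45.7 and 29.0 FPKM in GL261 1, 2 and 3, and 27.1, 39.6 and 62.9 FPKM in B16 1, 2 and 3. Control 2 lay inside the tumor-associated range and controls 1 and 3 lay below it. The mean was 17.7 ± 17.6 FPKM in control (SD, n = 3) and 39.0 ± 13.8 FPKM in tumor-associated libraries (SD, n = 6). The difference was 1.47 (SE 0.59, 95% interval 0.18 to 2.75), with an adjusted p of 0.205 by limma, so that it did not pass the 0.05 threshold. An exact two-sided permutation test of this gene alone gave p = 0.0476. Without control replicate 2 the difference was 2.21 and limma called it (adjusted p = 0.0418), and without control replicate 1, the library with high smooth muscle markers, it was 0.85 (adjusted p = 0.465).

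Tie1 was the second most abundant by its mean in each group. Its level was 63.0, 93.9 and 95.8 FPKM in control 1, 2 and 3, 51.8, 55.2 and 70.2 FPKM in GL261 1, 2 and 3, and 66.3, 35.7 and 81.3 FPKM in B16 1, 2 and 3. The groups overlapped, and 3 tumor-associated libraries lay above control 1. The mean was 84.2 ± 18.4 FPKM in control, 59.1 ± 9.81 FPKM in GL261 and 61.1 ± 23.2 FPKM in B16 libraries (SD, n = 3 each). The difference of -0.50 (SE 0.38, 95% interval -1.31 to 0.31) was not called by limma (adjusted p = 0.492), and the exact permutation test gave p = 0.119.

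The ratio of the receptors within a library was computed after their values were seen and is given as a description with no test. Tie1 FPKM divided by Tek FPKM was 12.9, 2.48 and 9.13 in control 1, 2 and 3, 1.76, 1.21 and 2.42 in GL261 1, 2 and 3, and 2.44, 0.901 and 1.29 in B16 1, 2 and 3. Each control library had a higher ratio than each tumor-associated library, although control 2 (2.48) and B16 1 (2.44) were close. Angpt2 per Tek was 61.8, 6.44 and 10.5 in control 1, 2 and 3, and ranged from 0.743 to 7.21 in tumor-associated libraries, where the groups overlapped. The groups also overlapped for the other ratios computed, Ptprb per Tek, Angpt2 per Tie1 and Angpt2 per Foxo1.

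**Figure D1:**
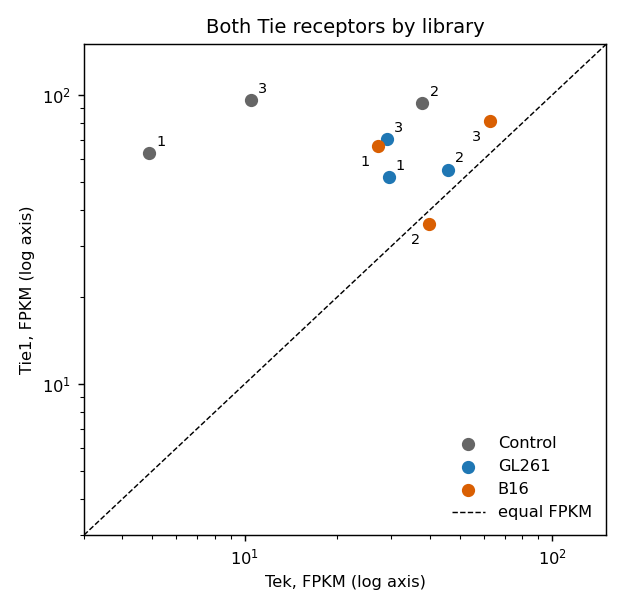
Level of Tie1 (vertical, FPKM, log axis) against Tek (horizontal, FPKM, log axis) in each of the 9 libraries, numbered by replicate, with a dashed line at equal FPKM. Control 1 and 3 lie far to the left at 4.90 and 10.5 FPKM of Tek, and B16 2 alone lies below the line, with a ratio of 0.901.

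Ptprb, encoding VE-PTP, was the 1 gene of the 6 tested whose tumor-associated and control libraries did not overlap. Its level was 5.92, 13.4 and 13.7 FPKM in control 1, 2 and 3, 40.6, 43.2 and 29.0 FPKM in GL261 1, 2 and 3, and 35.6, 41.2 and 33.0 FPKM in B16 1, 2 and 3. All 6 tumor-associated libraries lay above all 3 control libraries. The mean was 11.0 ± 4.43 FPKM in control (SD, n = 3) and 37.1 ± 5.48 FPKM in tumor-associated libraries (SD, n = 6). The difference was 1.73 (SE 0.46, 95% interval 0.74 to 2.72), or 3.32-fold on the scale of FPKM + 1. By limma its unadjusted p was 0.00236 and its adjusted p 0.055, so that it did not pass the 0.05 threshold over the 9955 genes tested. The exact two-sided permutation test gave p = 0.0119, the smallest that 84 divisions allow. Ptprb stood between the 27.8 and the 53.1 percentile of genes above 0 in control libraries and between the 73.7 and the 82.9 percentile in tumor-associated libraries.

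The call for Ptprb turned on the genes tested with it. Its adjusted p was 0.0378 with no low-value filter and 0.034 with a mean FPKM of at least 10, and leaving out 1 library in turn moved it between 0.0584 and 0.135. The difference was 1.37 without control replicate 1, and 1.64 (adjusted p = 0.49) with aligned reads (log2) as a covariate. The summed blood endothelial markers, the detected genes and the aligned reads moved with Ptprb and Tek across the groups. Aligned reads entered only as that covariate, and by the design they cannot be told apart from tumor status. The part of the blood endothelial markers and of the detected genes in these differences was not tested.

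Foxo1 was at 10.8, 43.9 and 36.5 FPKM in control 1, 2 and 3, 12.9, 12.5 and 4.69 FPKM in GL261 1, 2 and 3, and 16.02, 30.8 and 11.2 FPKM in B16 1, 2 and 3. Control 1 lay among the tumor-associated libraries and controls 2 and 3 lay above all of them. The mean was 30.4 ± 17.4 FPKM in control (SD, n = 3) and 14.7 ± 8.72 FPKM in tumor-associated libraries (SD, n = 6), a difference of -0.97 (SE 0.65, 95% interval -2.37 to 0.44) that limma did not call (adjusted p = 0.44). The exact permutation test gave p = 0.226. Without control replicate 1 the difference was -1.57, and without control replicate 2 it was -0.60. Foxo1 and Angpt2, its known target, had a Pearson correlation of 0.045 over the 9 libraries, which share depth and group.

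Angptl4, a secreted inhibitor of lipoprotein lipase, had the widest interval of the 6 genes tested. Its level was 31.9, 14.2 and 16.3 FPKM in control 1, 2 and 3, 3.97, 0.450 and 11.99 FPKM in GL261 1, 2 and 3, and 13.2, 6.04 and 59.98 FPKM in B16 1, 2 and 3. The GL261 libraries lay below all controls, whereas B16 held the highest of the 9 values. Over all tumor-associated libraries the difference was -1.17 (SE 0.96, 95% interval -3.25 to 0.90, limma adjusted p = 0.533), and it was 0.68 with aligned reads (log2) as a covariate. The exact permutation test gave p = 0.321. Without GL261 replicate 2 the difference was -0.64. Angptl2, a secreted protein known from inflamed tissue, was listed at 0 in 8 libraries and at 0.0407 FPKM in GL261 1.

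**Figure D2:**
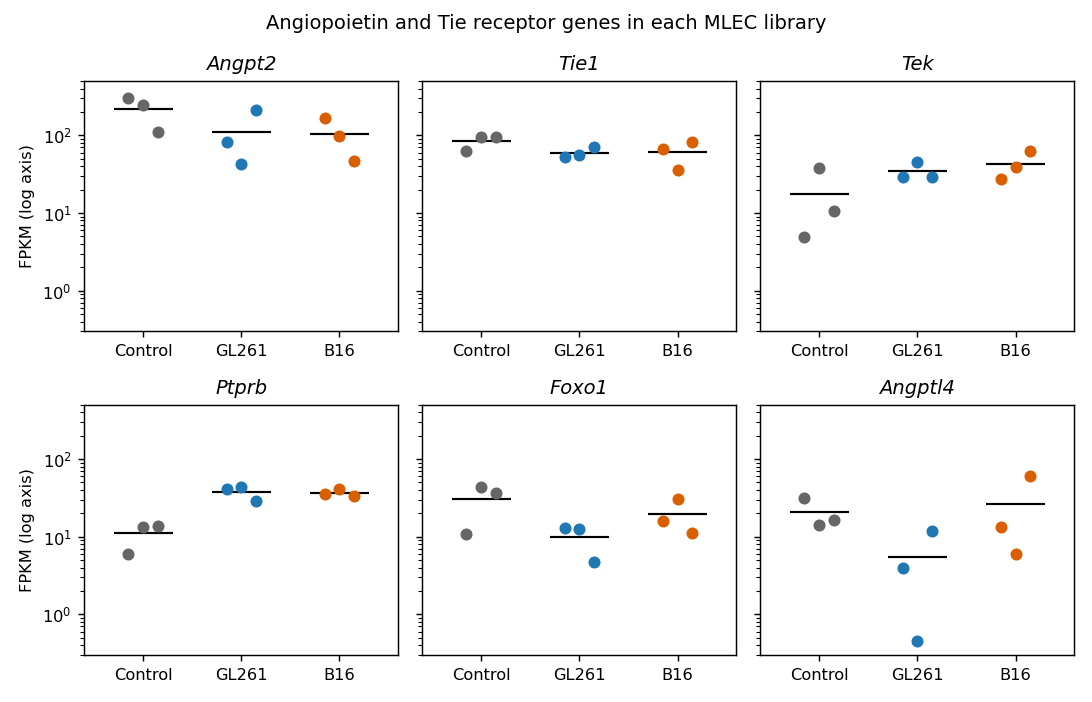
FPKM of the genes in each library, 1 point per library, with a bar at the mean of each of the 3 groups, on a log axis, for the 6 genes tested. The Ptprb points of the control group, 5.92 to 13.7 FPKM, lie below all GL261 and B16 points, 29.0 to 43.2 FPKM, while those of Angpt2, Tie1 and Tek overlap.

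The order of levels differed between the groups as a description. In control MLECs Angpt2 stood apart above Tie1, and Tie1 apart above Foxo1. Foxo1, Angptl4 and Tek each overlapped the next in rank, down to Ptprb. In GL261 MLECs Angpt2 and Tie1 overlapped, Ptprb and Tek lay apart below Tie1 but reached the lowest Angpt2 value, and Foxo1 and Angptl4 lay apart below that pair. In B16 MLECs each of the 6 detected genes overlapped its neighbor, from Angpt2 through Tie1, Tek, Ptprb and Angptl4 to Foxo1.

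In the joint comparison of tumor-associated with control MLECs, limma called 0 of the 6 genes tested, and 3.93% of all genes tested were called (2.9% higher and 1.02% lower). At an unadjusted p under 0.05 there were 2 of 6, Ptprb and Tek, against 19.0% of all genes. Groups did not overlap for 1 of 6, Ptprb, against 10.5% of all genes. All 6 had a ROC power above 0.4, a measure of how well 1 gene separates the groups, as did 51.6% of all genes. Of the 6, 2 had positive and 4 had negative differences, with a median of -0.73, and the median over all genes was 0.20. Relative to that median Ptprb differed by 1.53, Tek by 1.27, Tie1 by -0.70, Angpt2 by -1.34, Foxo1 by -1.17 and Angptl4 by -1.37. Of the 391 genes called, 73.9% were higher, against 64.4% after rescaling each library to one FPKM sum and 62.1% after quantile normalization.

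The comparisons of GL261 and of B16 with control share the 3 control libraries, and their values are given side by side. Against control, limma called 0 of 6 genes for GL261 (3.49% of all genes) and 0 of 6 for B16 (2.11%). At an unadjusted p under 0.05 there was 1 of 6 for GL261, against 16.9% of all genes, and there were 2 of 6 for B16, against 15.0%. Ptprb differed by 1.74 for GL261 (95% interval 0.55 to 2.94, limma adjusted p = 0.117) and by 1.72 for B16 (0.52 to 2.91, adjusted p = 0.149). Tek differed by 1.34 (-0.22 to 2.90) and by 1.60 (0.04 to 3.15). Angpt2 differed by -1.14 and -1.13, Tie1 by -0.49 and -0.51, and Foxo1 by -1.40 and -0.53. Each of these intervals for Angpt2, Tie1 and Foxo1 held 0.

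Angptl4 differed from control by -2.18 for GL261 (SE 1.00, 95% interval -4.37 to 0.02, limma adjusted p = 0.299) and by -0.17 for B16 (-2.36 to 2.02, adjusted p = 0.962). Groups did not overlap for Ptprb and Angptl4 in GL261, 2 of 6 against 22.5% of all genes, and for Ptprb in B16, 1 of 6 against 17.2%. A permutation of 3 against 3 libraries has 20 divisions and cannot go below 0.1, so limma alone was used here.

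Between the tumors, limma called 0 of 6 genes, with 0.01% of all genes called, and 0 of 6 had an unadjusted p under 0.05 (5.5% of all genes). Groups did not overlap for 0 of 6, against 13.8% of all genes. The GL261 minus B16 difference was -2.01 for Angptl4 (SE 1.00, 95% interval -4.20 to 0.18, adjusted p = 0.936) and -0.88 for Foxo1 (-2.50 to 0.74). For Ptprb it was 0.02 with an interval of -1.17 to 1.22, and for Tek -0.26 with -1.82 to 1.30. These intervals span changes larger than 2-fold in either direction for both genes, so that a difference of that size was not detectable with 3 libraries per tumor.

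**Figure D3:**
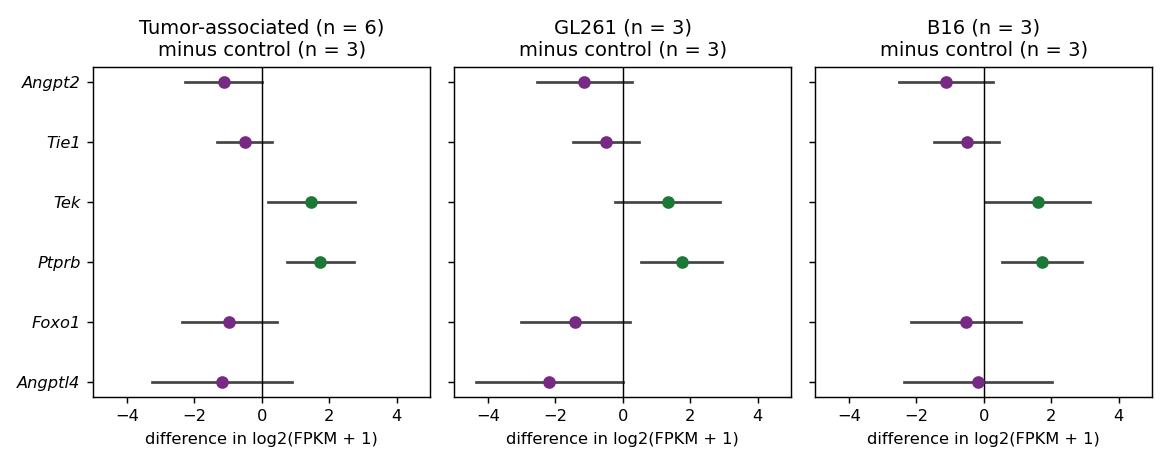
Difference in log2(FPKM + 1) for each of the 6 genes tested in the 3 comparisons with control MLECs, with 95% intervals from limma (green points above 0, purple below). Ptprb has intervals above 0 in each comparison with control (0.74 to 2.72 for both tumors together), and Angptl4 has the widest ones.

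Across the 19 alternatives tried for each gene, Ptprb kept a positive difference between 1.37 and 1.92 and Tek one between 0.85 and 2.21. Angpt2 ranged from -1.57 to -0.28, Tie1 from -0.73 to -0.34 and Foxo1 from -1.57 to -0.54, without a change of sign. Angptl4 alone changed sign in this comparison, between -1.72 and 0.68.

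**Figure D4:**
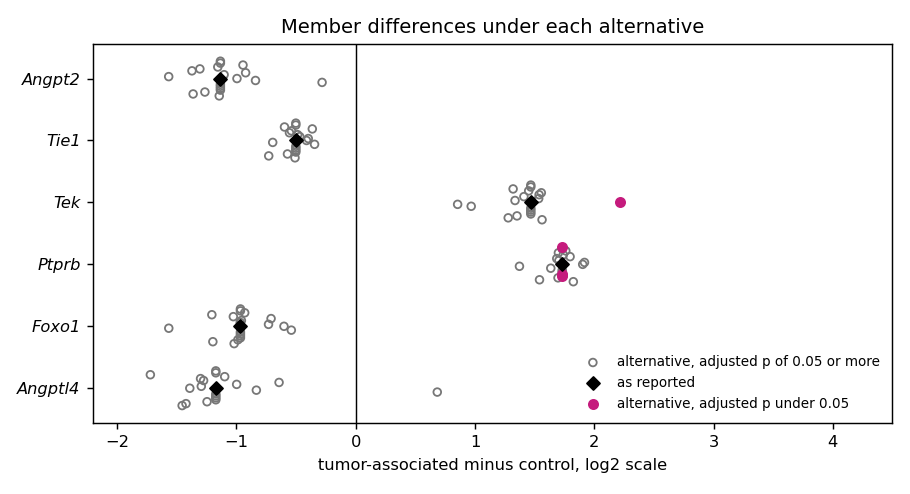
Tumor-associated minus control difference in log2(FPKM + 1) for each of the 6 genes tested under each alternative (circles, filled where limma's adjusted p was under 0.05) and as reported (diamonds). Filled circles occur for Ptprb at 1.73 and for Tek at 2.21, and Angptl4 crosses 0 at 0.68.

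No other gene of angiopoietin-Tie signaling passed the test. Of 26 listed, 19 were tested, limma called 0, against 3.93% of all genes, and 4 had an unadjusted p under 0.05, against 19.0% of all genes. There were 11 positive and 8 negative differences with a median of 0.22, near the median of all genes. Angpt4, Svep1, Dok2 and Grb7 were listed at 0 in every library. Itgb1, an integrin subunit that binds angiopoietins when Tie2 is low, was at 67.9 to 108 FPKM under PBS and 125 to 206 FPKM under tumors, a difference of 0.73 (SE 0.31, limma adjusted p = 0.224) without overlap. Rhoa, a small GTPase downstream of the receptors, was at 174 to 274 FPKM and 185 to 342 FPKM, a difference of 0.13 (adjusted p = 0.862) that was -0.101 after rescaling, -0.043 after quantile normalization and -0.38 with aligned reads as a covariate. The other genes at an unadjusted p under 0.05, named after their values were seen, were the integrin subunits Itga5 (difference 1.40, limma adjusted p = 0.118) and Itgb3 (2.196, adjusted p = 0.159) and the kinase subunit Pik3ca (-1.80, adjusted p = 0.249). Itgb3 was at 0, 2.05 and 0 FPKM in control 1, 2 and 3 and met the low-value filter mainly through tumor-associated libraries. Of the 19 tested, groups did not overlap for Itgb1, Itga5, Iqgap1 and Adam17, against 10.5% of all genes. Itga5 and Iqgap1 had positive differences. Adam17, the protease that can cleave Tie1, was at 16.3 to 23.9 FPKM under PBS and 1.17 to 15.5 FPKM under tumors (-1.05, adjusted p = 0.44).

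Known targets of FOXO factors did not move one way. Of 18 listed, 17 were tested, 2 rose and 0 fell, where 2.9% of all genes were called higher and 1.02% lower. There were 8 positive and 9 negative differences, with a median of -0.13. Bnip3, a mitochondrial protein of mitophagy, was listed at 0 in the 3 control libraries and was at 2.97 to 18.1 FPKM in tumor-associated libraries (limma adjusted p = 0.0279). It met the low-value filter only through the tumor-associated libraries, so that the direction of its difference was set by the filter. The insulin receptor gene Insr was at 0, 10.4 and 0.541 FPKM in control 1, 2 and 3 and at 14.8 to 29.0 FPKM under tumors. The difference was 3.08 (SE 0.76, limma adjusted p = 0.0409). Insr met the low-value filter mainly through tumor-associated libraries, so that the filter favored this direction. Insr lost its call in 13 of 18 alternatives. These were a pseudocount of 0.1, rescaling (adjusted p = 0.0565), no low-value filter, aligned reads as a covariate (0.613), the fit of 3 groups, and leaving out any library but control replicate 2 (up to 0.123). Bnip3 lost it in 7 of 17, with the replicate block, with the covariate (0.379), and without any 1 control library, GL261 replicate 1 or B16 replicate 2 (up to 0.0686). Txnip, an inhibitor of thioredoxin named here after its values were seen, was the most abundant target, at 402 to 651 FPKM under PBS and 98.7 to 453 FPKM under tumors. Its joint difference of -1.32 (SE 0.41) did not pass limma's threshold (adjusted p = 0.0989), and in GL261 against control it fell by 1.81 (adjusted p = 0.0319), the 1 target called there. That call was lost with no low-value filter (adjusted p = 0.0761), with eBayes without a trend (0.144), with aligned reads as a covariate (0.809), and without control replicate 1 or 2, GL261 replicate 1 or 3, or B16 replicate 2 (up to 0.134). In B16 against control 0 targets were called.

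Among the other angiopoietin-like genes and the lipase partners of Angptl4, 7 of 16 were tested, 1 rose and 0 fell, against 2.9% and 1.02% of all genes. There were 7 positive differences, with a median of 1.40. Lpl and Ppard, at 0 in the control libraries, met the low-value filter only through tumor-associated libraries, which set their direction. Angptl1, Angptl7, Ppara and Gm6484, the symbol under which Angptl8 was listed, were at 0 in every library. Hif1a, the hypoxia-inducible factor subunit that can drive Angptl4, was at 3.20 to 20.6 FPKM under PBS and 29.3 to 96.2 FPKM under tumors, a difference of 2.36 (SE 0.59, limma adjusted p = 0.0434). It lost its call in 13 of 19 alternatives, which included a pseudocount of 0.1, rescaling (adjusted p = 0.0709), no low-value filter, eBayes without a trend, the replicate block, aligned reads as a covariate (0.34) and the fit of 3 groups. The others were those without control replicate 1, GL261 replicate 1 or 2, or any B16 library, with adjusted p up to 0.127. Gpihbp1, named here after its values were seen, was at 211.5 to 352.9 FPKM under PBS. It was at 145.4 to 666.3 FPKM in GL261 and 958.1 to 2128 FPKM in B16 libraries. Its joint difference of 1.45 (SE 0.61) did not pass limma's threshold (adjusted p = 0.224). In B16 against control it rose by 2.34 (SE 0.53, adjusted p = 0.0465), the 1 gene of this list called there.

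**Figure D5:**
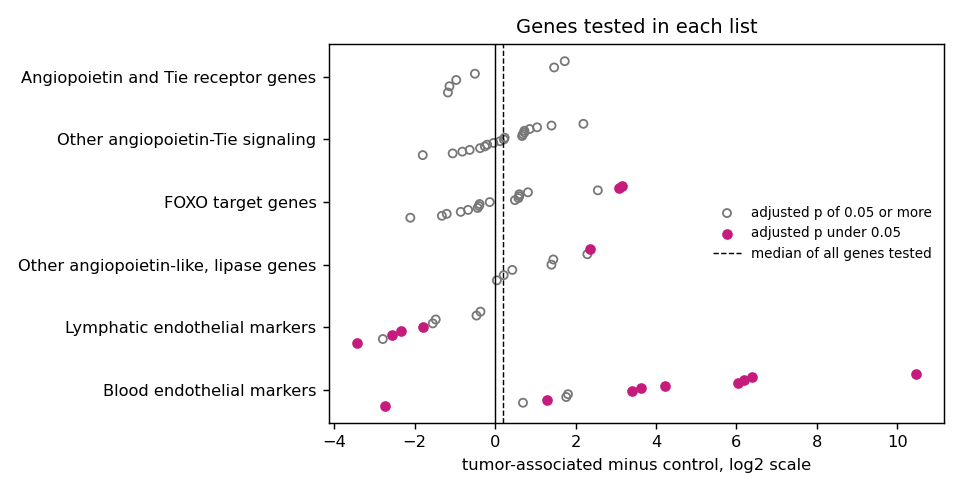
Tumor-associated minus control difference in log2(FPKM + 1) for each gene tested in 6 lists, filled where limma's adjusted p was under 0.05, with a dashed line at the median of all genes, 0.20. The angiopoietin and Tie receptor genes lie between -1.17 and 1.73 with none filled, the lymphatic markers lie below 0, and the blood endothelial markers reach 10.5.

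The levels of the remaining marker lists were as follows. Of 8 pan-endothelial markers, 2 rose, Eng (difference 1.37, limma adjusted p = 0.0197) and Ecscr (0.90, adjusted p = 0.04), against 2.9% of all genes. After rescaling, after quantile normalization or with aligned reads as a covariate, 0 were called. Eng and Ecscr also lost their calls with eBayes without a trend, Eng without control replicate 2 or 3, and Ecscr without 7 of the 9 libraries, with no low-value filter and with the replicate block. The 8 had 4 positive and 4 negative differences. In GL261 against control, limma called Cldn5 lower (-1.01, adjusted p = 0.0215) and Ecscr higher (1.03, adjusted p = 0.0409). In B16 against control it called Eng higher (1.53, adjusted p = 0.0371). In the joint comparison with aligned reads as a covariate, limma called 0 of the lymphatic markers, against 4 without it. It then called 2 of the blood endothelial markers, against 9 without it. Mmrn1 then had an adjusted p of 0.43, and Cd34 and Esam had 0.0891 each. Of the markers named above, Flt4 also lost its call without control replicate 3 (adjusted p = 0.0522), Fxyd6 without control replicate 1 (0.0503), Aqp1 without control replicate 1 or 3 and Reln without 7 of 9 libraries. The fibroblast marker Dcn differed by -4.595 (limma adjusted p = 0.0011), at 15.69 to 44.85 FPKM under PBS and 0 to 0.1462 FPKM under tumors. It met the low-value filter only through the control libraries, so that the direction of its difference was set by the filter. The summed fibroblast markers, 16.2 to 49.0 FPKM under PBS and 0 to 3.85 FPKM under tumors, were mostly Dcn in the control libraries. Dcn was the 1 fibroblast marker tested, and Lum, Dpt and Mfap5 were listed at 0 in every library. Macrophage markers summed to 89.2 to 230 FPKM and 15.03 to 366 FPKM, with Lyz2 and Mrc1 highest and Ptprc and Adgre1 at 0. Mrc1 was called lower in GL261 against control (-4.27, limma adjusted p = 0.0216). Platelet markers summed to 0 to 2.72 FPKM and 3.26 to 188 FPKM, Pf4 highest and Itga2b next. Ppbp, Gp9 and Treml1 were listed at 0 in every library, and Gp1ba was above 0 only in control 2, at 2.72 FPKM. Glial markers summed to 0 to 0.739 FPKM and 3.09 to 45.7 FPKM, S100b and Fabp7 highest. Fabp7 was at 45.7 FPKM in GL261 3 and listed at 0 in every other library. S100b was at 25.28 to 37.05 FPKM in B16 and 0 to 3.001 FPKM in GL261 libraries. It was called in B16 against control (limma adjusted p = 0.0135). S100b met the low-value filter only through tumor-associated libraries, which set its direction. Gfap and Sox2 were listed at 0 in every library. Melanocyte markers reached 4.07 FPKM at most, for Pmel in GL261 2, with Dct next at 0.783 FPKM in B16 2. Pmel was listed at 0 in every other library, those of B16 included. The part of these cell types in the values of the angiopoietin and Tie receptor genes was not tested.

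The genes whose pattern over the 9 libraries was most like that of each gene are given by Pearson correlation, as a description over libraries that share depth and group. For Ptprb they were Sod1 (0.972), Naa20 (0.97) and Ucp2 (0.968), and for Tek Pcyox1 (0.966), Map3k8 (0.963) and Apbb2 (0.961). For Angpt2 they were Mospd2 (0.949), Zc2hc1a (0.928) and Gapvd1 (0.926), and for Tie1 Ints1 (0.923), 2010012O05Rik (0.92) and Arhgap27 (0.915). For Foxo1 they were C130074G19Rik (0.965), Vps35 (0.932) and Sp2 (0.917), and for Angptl4 Aldh2 (0.907), Fubp1 (0.894) and Adprh (0.88). With a pseudocount of 0.1, 0 of the 3 genes named for Tek and 1 of the 3 for Tie1 were again the nearest, so these names depend on low values. Among the 6 genes themselves, Tek and Ptprb had a correlation of 0.803, Angpt2 and Ptprb one of -0.685, and Angpt2 and Tek one of -0.602.

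In mm9, with GENCODE M1 models, Tek lies at chr4:94405980-94541667 and Tie1 on the same chromosome at chr4:118143796-118162666. Ptprb lies at chr10:115712579-115826594, Angpt2 at chr8:18690263-18741562, Foxo1 at chr3:52072259-52154031 and Angptl4 at chr17:33910695-33918520. Angpt1 lies at chr15:42256273-42508523 and Angptl2 at chr2:33071589-33103237. FPKM cover the exons of a gene. The stated protocol does not keep strand, so that reads of a gene and an antisense partner cannot be told apart. Foxo1 shares 674 exonic bases with an antisense transcript not listed in the file, and Angpt1 shares 283 with another, so that their levels are less certain. Angpt2 lies opposite Mcph1, with 0 shared exonic bases and Mcph1 at no more than 2.29 FPKM.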

How the data were processed

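RNA was measured in 9 MLEC libraries (3 control, 3 GL261, 3 B16). The authors aligned paired reads to mm9 with TopHat2 2.0.12 and deposited FPKM from Cufflinks 2.2.1, 1 value per gene symbol and library. The annotation was not given in the sources used here. The deposited FPKM hold no counts, so no count model or counting interval was used, and the depth behind a single value is unknown. Genes at 1 FPKM or above in 3 or more libraries (9955) were tested on log2(FPKM + 1), which understates changes of low genes, with limma 3.58.1 in R 4.3.3 (eBayes with a trend, Benjamini-Hochberg over all genes tested, threshold 0.05). GL261 and B16 were joined for the main comparison and fitted as 3 groups for the others. Exact permutation tests and descriptions used Python 3.11.15 and scipy 1.17.1. Limma was tested on simulated data. Aligned reads per library, as listed by the study, served only as a covariate. Groups came from the sample titles. The values of 1 listed gene are not reported here.

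The members and lists were chosen with earlier results of these data known. All members were named, with listed genes past the threshold (up to 4 per direction), or otherwise the 2 highest by mean log2 level, and the 3 genes most alike each member. Alternatives were another pseudocount, rescaling, quantile normalization, other filters, eBayes without a trend, the replicate block, the covariate, leaving out each library and the ROC power.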

Additional observations from a re-analysis of the deposited data

Results flagged for a closer look

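Angpt1 and Angptl2 each had 1 library far from the others among the 6 tumor-associated libraries. In both cases it was GL261 replicate 1, with 1.02 FPKM for Angpt1 and 0.0407 FPKM for Angptl2, and the other 5 were listed at 0. The gap to the nearest value was 1.0 of the whole range for Angpt1 and 1.0 for Angptl2, above Dixon's critical value of 0.625. Of 8 sets of values examined, chance alone flags about 1 in 20 such sets, and values at 0 make such a gap certain once 1 library is above 0.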

How the results depend on the processing

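The count of angiopoietin and Tie receptor genes past limma's threshold in tumor-associated against control MLECs was 0 and kept that value in 15 of 20 alternatives. It was 1 (Ptprb) with no filter beyond any FPKM above 0 (adjusted p = 0.0378), 1 with a mean FPKM of at least 10 (0.034) and 1 with genes above 0 in all 9 libraries (0.0353), an alternative chosen after seeing the data. By the ROC power above 0.4 it was 6. Leaving out 1 library gave 0 to 1, the 1 being Tek without control replicate 2. The counts for GL261, for B16 and between the tumors were 0 in 19 of 19, 19 of 19 and 18 of 18 alternatives.

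With log2 of aligned reads as a covariate, signs turned for Angptl4 (0.68) in the joint comparison, Angpt2 (1.07) and Tek (-0.53) in GL261, Angpt2 (0.036) and Angptl4 (0.16) in B16, Angpt2 (1.03) and Ptprb (-0.070) between the tumors, and the listed genes Rhoa (-0.38), Kcnj8 (0.84) and Itga2b (-0.51). After rescaling they turned for Tie1 (-0.14) and Ptprb (-0.14) between the tumors and for Rhoa (-0.101), and after quantile normalization for Rhoa (-0.043). Leaving out 1 library gave -1.04 to 0.52 for Angptl4 in B16. Between the tumors it gave -0.61 to 0.51 for Angpt2, -0.54 to 0.046 for Tek, -0.32 to 0.26 for Tie1 and -0.083 to 0.20 for Ptprb. It gave -0.075 to 0.25 for Rhoa and -2.97 to 0.62 for Lyz2. The cause was not tested.

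Same-numbered libraries deviated with correlations between -0.0334 and 0.0443, so the numbers were not taken as pairs. The replicate block left 0 members called in each comparison (Ptprb adjusted p = 0.089) and 303 genes of all tested, against 391. The latter count was 9 with aligned reads as a covariate, 254 without the filter, 245 without GL261 replicate 2, 247 without B16 replicate 3, 259 without control replicate 1 and 260 without GL261 replicate 1.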
